A study of Mus musculus with 8 samples.

Results

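Regional identity transcription factors were followed in cultured mouse neural stem and progenitor cells with and without Kat7. The set held 32 genes, taken from a fixed list of symbols and matched by Entrez identifier, out of 27179 genes in the count table. They fell into 11 dorsal and general forebrain factors, 11 ventral forebrain factors and 10 factors grouped here as posterior. All cells were grown as neurospheres, floating clusters of dividing precursors, from C57BL/6 fetuses at E14.5, in mid-neurogenesis. In 4 cultures both Kat7 alleles were floxed and a Nestin-driven Cre transgene was present (Kat7lox/lox NesCreT/+, called deleted), and in 4 cultures the same transgene was present with wild-type Kat7 (Kat7+/+ NesCreT/+, called intact). Every culture therefore carried the Cre transgene. Each genotype came from 3 litters, with none shared between genotypes, and so an effect of litter cannot be told apart from one of genotype. The brain region that was dissected is not given in the sources used here.

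Cells of the developing brain take their place on the dorsal to ventral and front to back axes through combinations of transcription factors, many of them homeodomain proteins. Lhx2, Emx2 and Pax6 mark the cortical side of the forebrain, Gsx2, the Dlx genes and Nkx2-1 mark the ganglionic eminences that give rise to inhibitory neurons, and En1, En2, Pax3 and Pax7 mark the midbrain, hindbrain or dorsal neural tube. Meis and Pbx proteins are partners of Hox and other homeodomain proteins and are also expressed in the forebrain. Kat7, also called HBO1, encodes a histone acetyltransferase.

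Libraries held 10687817 to 22444359 counts, and a single read equalled 0.0436 to 0.0918 CPM, the normalised count per library of common size. Kat7 stood at 77.1 to 92.1 CPM in the intact cultures and at 26.4, 0.367, 13.9 and 0.0870 CPM for deleted replicates 1 to 4. The deleted cultures were all below the intact ones, and replicates 1 and 3 kept Kat7 reads. Kat7 itself was not called by edgeR in the fit used below (log2 fold change -3.02, adjusted p = 0.128). The mitochondrial share of counts ranged from 19.0% to 23.5% with Kat7 and was 29.9%, 19.0%, 17.1% and 34.4% in deleted replicates 1 to 4. Stem cell markers were present in every library, with Nes at 831 to 2040 CPM and Sox2 at 142 to 272 CPM. None of the 8 listed was called. Fabp7 stood at 1486 to 2059 CPM with Kat7 intact and 581 to 1703 CPM in deleted cultures. Prom1 was near the floor, at 0.393 to 0.897 and 0.0634 to 1.19 CPM. Meningeal and mesenchymal markers summed to 23.6 to 38.2 CPM with Kat7 intact and 65.6 to 699 CPM in deleted libraries, the highest sum being that of deleted replicate 2, where Col3a1 stood at 334 CPM and the neuronal gene Dcx at 101 CPM. Most of the intact sum was Foxc1, which overlapped between genotypes and was not called (means of 29.3 and 60.2 CPM, adjusted p = 0.0545). Col3a1 was at most 0.220 CPM in deleted replicates 1, 3 and 4. Col1a1, Col1a2, Lum and Pdgfrb had at most 17 reads in any library. The sum of the ependymal markers did not overlap between genotypes, at 11.2 to 13.9 CPM against 19.9 to 36.4 CPM in deleted libraries. Most of it was Foxj1, with means of 10.5 and 24.3 CPM, which was called higher (log2 fold change 1.21, adjusted p = 0.0214). Of the 3 ependymal markers tested, Ccdc153 was not called (2.16, adjusted p = 0.0579) and Dynlrb2 overlapped between genotypes (-0.18). Astrocyte markers had a median log2 fold change of 2.30 over 7 tested, with 1 called higher, Aqp4 (4.24, adjusted p = 0.00483), and sums of 103 to 194 CPM against 137 to 1075 CPM. The other called markers were Acta2, higher, and Gpr17 of the oligodendrocyte lineage (-3.21), the neuronal gene Elavl4 (-1.50) and the endothelial gene Kdr (-3.45), all lower. The part of these differences in the results below was not tested, except where a value without a library is given. In bulk cultures, fewer cells of a type and less RNA per cell cannot be told apart.

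Levels were compared between genes as RPKM, CPM divided by gene length in kilobases, in the intact cultures. Zic1, a zinc finger factor of dorsal neural tissue, was the most abundant of the set at 15.2 ± 1.07 RPKM (SD, n = 4). It was followed by Pbx3 at 9.51 ± 0.387, Zic2 at 8.92 ± 1.02, Meis2 at 8.07 ± 1.48 and Lhx2 at 7.22 ± 0.608 RPKM. Nr2f1, an orphan nuclear receptor of cortical area patterning, stood at 6.90 ± 0.654 RPKM, Meis1 at 6.62 ± 0.413, Pax6 at 6.33 ± 0.603 and Otx2 at 5.63 ± 1.75. From Pbx3 down to Otx2, each neighbour in this order differed from the next by less than the larger of their SDs, whereas Zic1 and Pbx3 were further apart than both SDs together. Every ventral factor was below Otx2, as were the dorsal and posterior factors not listed so far, such as Emx2 at 3.92 RPKM. The highest ventral factor was Nkx2-2 at 1.45 ± 1.24 RPKM, a homeodomain factor of the ventral neural tube and oligodendrocyte lineage. The dorsal factors Otx1 and Nr2e1 were lower, at 1.02 RPKM each.

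**Figure D1:**
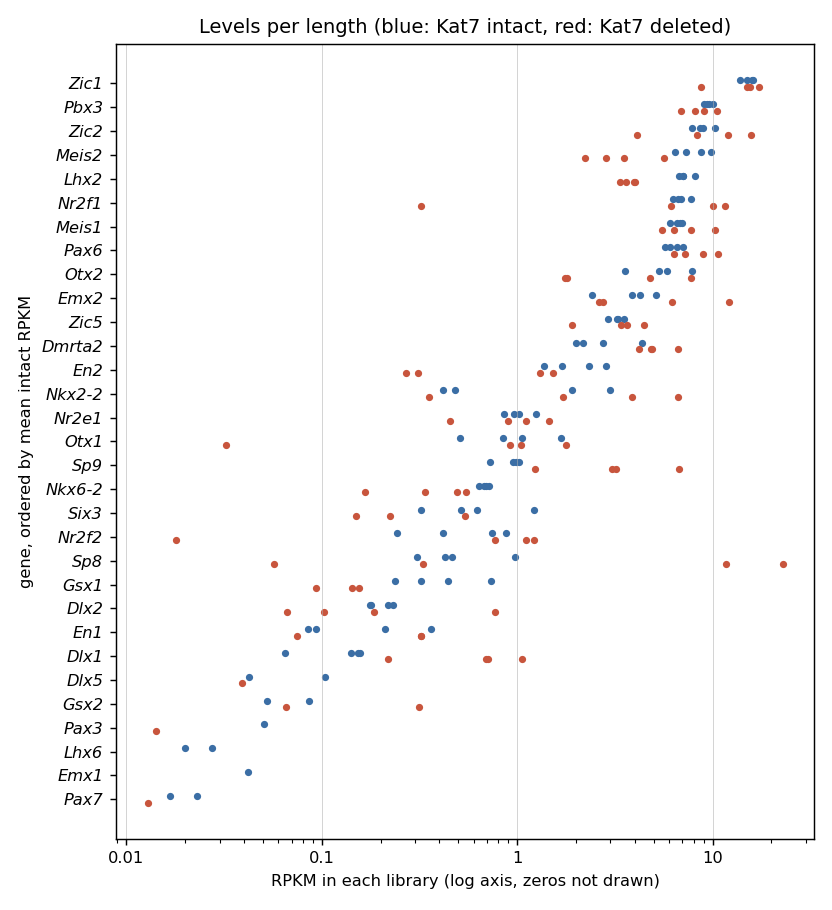
RPKM (log axis) of the regional factors in each library, ordered by their mean in Kat7 intact cultures, with a blue point for each intact and a red point for each deleted library. Values of 0 are not drawn, and Nkx2-1, with 0 reads in all libraries, is left out. Zic1 lies at the top, and the ventral factors lie below Otx2 among dorsal and posterior ones. Sp8 has a pair of deleted libraries far to the right of its other libraries.

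A filter on low counts left 22 of the 32 genes for testing. The other 10 (Emx1, Gsx1, Gsx2, Dlx2, Dlx5, Nkx2-1, Lhx6, En1, Pax3 and Pax7) had at most 30 reads in any library. Of the 22, 2 were called higher and 2 lower in the deleted cultures at an adjusted p under 0.05 by edgeR's quasi-likelihood test. Over all 13498 genes tested, 7.90% were called, 5.10% higher and 2.80% lower. The called members were Dlx1 and Sp9, both ventral, on the higher side, and Lhx2, dorsal, and Meis2, grouped as posterior, on the lower side. The genotypes did not overlap in CPM for 5 of the 22, Nkx6-2 being the fifth, against 19.9% of all genes tested (10.7% higher, and for the lower side 9.21%). With an unadjusted p under 0.05, 4 members were above and 2 below, against 15.8% and 10.4% of all genes (26.2% in either direction). The fitted change was above 0 for 12 of the 22 and for 55.0% of all genes. The shares by unadjusted p and by sign are near those of the whole table. The median log2 fold change (deleted over intact) was -0.01 over 10 dorsal, 1.94 over 5 ventral and -0.10 over 7 posterior genes tested, against 0.05 over all genes. The ventral value describes those 5 genes, of which Dlx1 passed the filter through its deleted libraries alone, and is no test. When libraries were scaled by their totals only, the median of all genes moved to -0.09, and the split of called genes went from 688 higher and 378 lower to 309 and 364. The share of all genes called was 4.99% with that scaling, 7.72% with RLE size factors, 3.75% with no filter, 8.24% with a 1 CPM filter and 7.79% with mitochondrial genes left out. It was 16.9% with limma-voom and sample weights, 2.36% with the replicate block, 3.07% with litter as a random block and 1.39% with littermates summed. Without intact replicates 1 to 4 in turn it was 1.81%, 1.39%, 1.91% and 1.39%, and without deleted replicates 1 to 4 in turn it was 12.6%, 15.8%, 5.55% and 5.92%. Leaving out the deleted pair with Kat7 reads gave 16.7%, and leaving out the pair of highest mitochondrial share gave 9.67%. Calls lost below without an intact library are to be read against these lower shares.

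**Figure D2:**
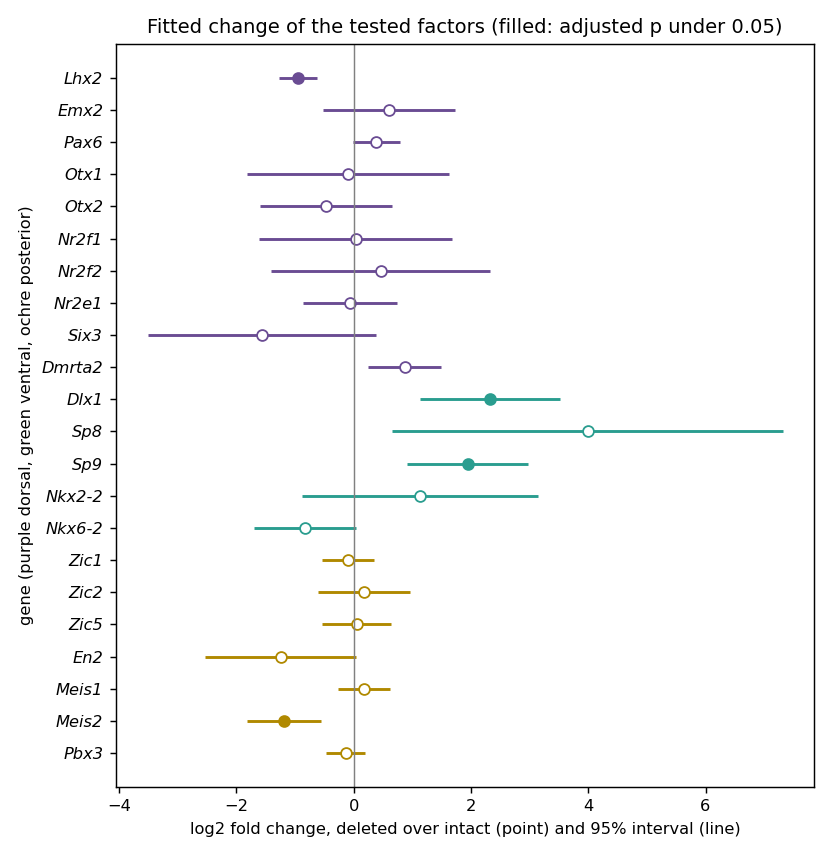
Fitted log2 fold change of deleted over intact cultures for the 22 tested factors, with 95% intervals as lines. Filled points mark the 4 genes called at an adjusted p under 0.05: Lhx2 at -0.95, Dlx1 at 2.33, Sp9 at 1.94 and Meis2 at -1.19. The interval of Sp8 runs from 0.66 to 7.32 and is the widest.

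Among the dorsal factors, Lhx2, a LIM homeodomain factor needed for cortical identity, was called lower. It stood at 16.0, 18.5, 16.0 and 15.4 CPM in intact replicates 1 to 4 and at 9.07, 9.18, 7.69 and 8.26 CPM for deleted replicates 1 to 4. All deleted cultures lay close together and well below every intact one. The fold was 1.93 lower, with a log2 fold change of -0.95 ± 0.14 (SE) and an adjusted p of 0.00945. The SD of its log2 CPM was 0.12 in both genotypes, which made it the steadiest of the 22 genes in the deleted cultures. Its call held whichever library was removed (adjusted p up to 0.0487) and missed it with littermates summed (0.0643).

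The remaining dorsal factors were not called. Dmrta2, a DM-domain factor of the cortical hem and cortex, stood at 12.8, 5.86, 6.41 and 8.11 CPM with Kat7 intact and 12.4, 19.6, 14.3 and 14.4 CPM for deleted replicates 1 to 4. Deleted replicate 1 overlapped intact replicate 1, and the log2 fold change was 0.87 ± 0.27 (95% interval 0.25 to 1.49, adjusted p = 0.0858). DESeq2 called it (adjusted p = 0.0356). Pax6, a paired-box factor of cortical radial glia, stood at 24.2, 20.9, 26.0 and 22.2 CPM with Kat7 intact and 26.5, 39.2, 32.9 and 23.4 CPM for deleted replicates. Its log2 fold change of 0.39 had an interval from -0.01 to 0.78 (adjusted p = 0.200). Without the deleted pair of highest mitochondrial share it was 0.61 with an adjusted p of 0.0415.

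Emx2, a homeodomain factor of the caudal and medial cortex, was spread widely in the deleted cultures. Intact replicates held 11.0, 10.1, 13.3 and 6.24 CPM, and deleted replicates 1 to 4 held 31.5, 7.16, 16.1 and 6.78 CPM. Deleted replicates 1 and 3 lay above all intact cultures and replicates 2 and 4 within their range (log2 fold change 0.60, interval -0.53 to 1.73, adjusted p = 0.474). Its close relative Emx1 had 1 read in all libraries together. Nr2f1 stood at 19.0, 16.3, 16.7 and 15.2 CPM with Kat7 intact and at 28.3, 14.9, 24.5 and 0.783 CPM for deleted replicates. Deleted replicate 4, with 9 reads, stood apart from the 7 other libraries. Nr2f2, the related receptor of the caudal ganglionic eminence, showed the same low library, at 3.74, 5.42, 5.93 and 0.0870 CPM for deleted replicates against 1.18 to 4.26 CPM in intact ones. Log2 fold changes were 0.03 (interval -1.61 to 1.67) for Nr2f1 and 0.46 (-1.40 to 2.32) for Nr2f2, with adjusted p of 0.983 and 0.762.

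Factors of the front of the brain were not called. Otx2, which specifies forebrain and midbrain, stood at 10.1, 13.6, 9.20 and 6.19 CPM with Kat7 intact and 3.04, 3.12, 13.5 and 8.35 CPM for deleted replicates (adjusted p = 0.580). Otx1 ran from 1.44 to 4.71 CPM in intact cultures and stood at 5.01, 0.0918, 2.97 and 2.61 CPM in deleted ones, deleted replicate 2 having 1 read. Six3, a homeodomain factor of the rostral forebrain and eye field, had 32, 75, 39 and 27 reads in intact and 0, 6, 15 and 23 reads in deleted replicates. Its log2 fold change was -1.56 with an interval from -3.51 to 0.39 (adjusted p = 0.284). Nr2e1, or Tlx, a nuclear receptor of neural stem cell renewal, stood at 2.78 to 4.01 CPM with Kat7 intact and 1.47 to 4.70 CPM in deleted cultures (log2 fold change -0.06, interval -0.86 to 0.73).

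Ventral factors held both higher calls, at low levels. Dlx1, a homeodomain factor of inhibitory neuron precursors, had 6, 3, 8 and 10 reads in intact and 31, 21, 11 and 34 reads in deleted replicates. In CPM these were 0.428, 0.179, 0.391 and 0.436 against 1.97, 1.93, 0.604 and 2.96, with no overlap between genotypes. The log2 fold change was 2.33 ± 0.53 (adjusted p = 0.0349). Dlx1 passed the low-count filter through its deleted libraries alone, the group where it was higher. The filter had thus already drawn on the values behind the call. Removing any intact library ended the call, with values from 2.12 to 2.42 and an adjusted p up to 0.113, and without deleted replicate 4 (2.02, adjusted p = 0.0650). It was also lost with litter as a random block (2.04, 0.183), with limma-voom and sample weights (1.54, 0.0811), with the replicate block (2.22, 0.0798) and without the deleted pair of highest mitochondrial share (1.71, 0.114). With a filter of 1 CPM in at least 4 libraries, or with mitochondrial genes left out, Dlx1 did not pass the filter and was not tested. Its neighbour Dlx2, 9.43 kb away on chromosome 2, had 8, 9, 9 and 10 reads in intact and 4, 5, 3 and 22 in deleted replicates and was not tested. Deleted replicate 4 was the highest library for both genes.

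Sp9, a zinc finger factor of the ganglionic eminences, stood at 2.78, 2.87, 2.69 and 2.05 CPM with Kat7 intact and 3.49, 18.9, 9.06 and 8.61 CPM for deleted replicates 1 to 4. Deleted replicate 1 lay just above the intact range and the others well above it. The log2 fold change was 1.94 ± 0.46 (adjusted p = 0.0391). The call was lost without any 1 intact library (1.82 to 1.99, adjusted p up to 0.119) and without deleted replicate 3 or 4 (1.99 and 2.01, adjusted p 0.0647 and 0.0602). It was also lost with scaling by total counts alone (adjusted p = 0.0604), with litter as a random block (1.65, 0.135), with littermates summed (2.04, 0.145) and with the replicate block (1.74, 0.0864).

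Sp8, the close relative of Sp9, changed most between cultures. Intact replicates held 2.07, 1.38, 1.91 and 4.36 CPM, and deleted replicates 1 to 4 held 0.254, 102, 1.48 and 52.8 CPM. Deleted replicates 2 and 4, the libraries with 4 and 1 Kat7 reads, were far above all others, and deleted replicate 1 was the lowest of the 8. The log2 fold change of 3.99 ± 1.46 had an adjusted p of 0.129 and was not called by edgeR. It was called by DESeq2 (adjusted p = 0.0335), without deleted replicate 1 (4.40, 0.0423) and without deleted replicates 1 and 3 (4.97, 0.00105), a pair chosen for its Kat7 reads. With litter as a random block it was 0.86 (0.858). The meningeal and mesenchymal marker gene Acta2 was also highest in deleted replicates 2 and 4, at 191 and 107 CPM. Its part in the level of Sp8 was not tested.

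**Figure D3:**
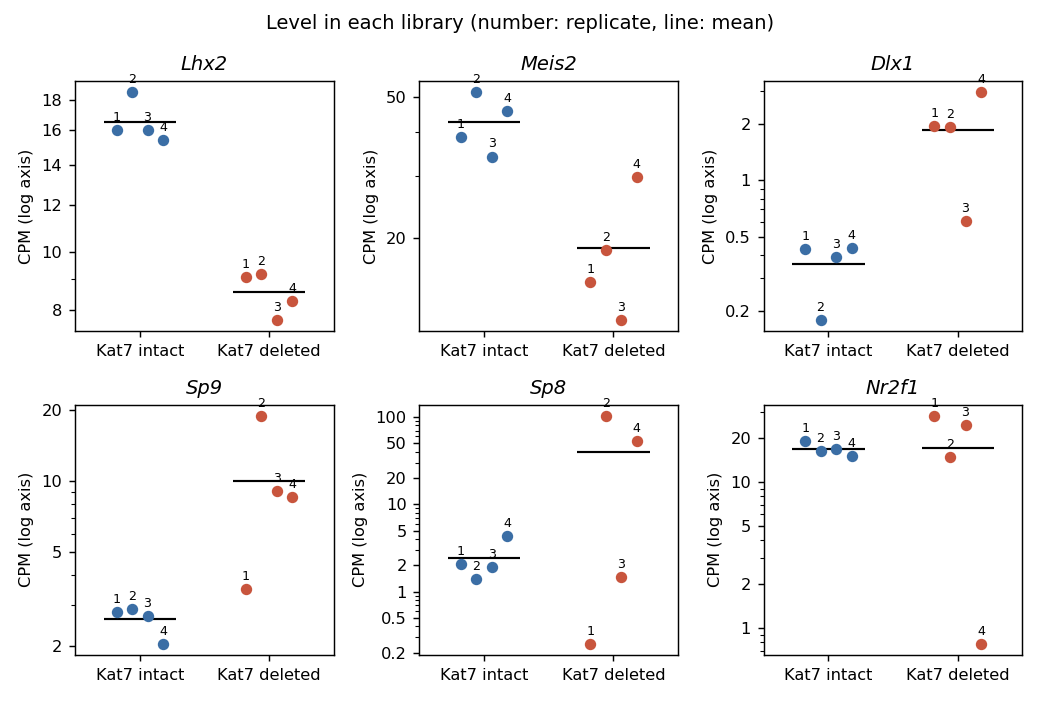
CPM (log axis, each panel with its own range) of 6 regional factors in each library, with the replicate number beside each point and the mean as a line. Lhx2 and Meis2 are lower and Dlx1 and Sp9 higher in all deleted cultures, Sp8 is high in deleted replicates 2 and 4 alone, and Nr2f1 is low in deleted replicate 4 alone.

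Other ventral factors were low or undetected. Nkx2-2 stood at 7.34, 1.02, 4.70 and 1.18 CPM with Kat7 intact and 16.2, 4.22, 9.44 and 0.870 CPM for deleted replicates, with overlap between the genotypes (log2 fold change 1.13, interval -0.89 to 3.14, adjusted p = 0.452). Nkx6-2, a homeodomain factor of ventral progenitors, stood at 1.28, 1.38, 1.32 and 1.22 CPM with Kat7 intact and 0.317, 0.643, 0.933 and 1.04 CPM for deleted replicates. The genotypes did not overlap, yet the log2 fold change of -0.82 ± 0.38 was not called (adjusted p = 0.211). Gsx1, a homeodomain factor of ganglionic eminence progenitors, had 8, 7, 16 and 30 reads in intact and 4, 3, 3 and 0 in deleted replicates. It was below the filter here, and DESeq2, which kept it, gave a log2 fold change of -2.17 with an adjusted p of 0.0408, in a fit that called 2203 of 15152 genes. With edgeR and no filter its adjusted p was 0.117. Gsx2 had 12 reads over all libraries, Dlx5 5 and Lhx6 3. Nkx2-1, the factor that defines the medial ganglionic eminence, had 0 reads in each library, which allows up to 3 reads, or 0.131 to 0.275 CPM depending on the library, for counting error alone.

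Markers of mature inhibitory neurons were at or near 0 beside the Dlx1 and Sp9 calls. Gad2 and Slc32a1, which make and package GABA, had 0 reads in all 4 deleted libraries, and Npy and Sst had 0 in all 8. Gad1 stood at 2.79 to 7.89 CPM with Kat7 intact and 0.0918 to 5.58 CPM in deleted cultures. Htr3a, a serotonin receptor subunit of interneurons from the caudal ganglionic eminence, stood at 1.47 to 6.16 CPM in intact cultures and at 1.90, 89.4, 15.5 and 30.5 CPM for deleted replicates 1 to 4. Its log2 fold change of 3.32 missed the threshold (adjusted p = 0.0781).

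Among the genes grouped as posterior, Meis2 was called lower. It stood at 38.6, 51.7, 34.0 and 45.8 CPM with Kat7 intact and 14.96, 18.5, 11.7 and 29.7 CPM for deleted replicates 1 to 4. Every deleted culture was below every intact one, with replicate 4 the nearest. The log2 fold change was -1.19 ± 0.28, a fold of 2.28 lower (adjusted p = 0.0398). The call was lost without any 1 intact library (-1.28 to -1.08, adjusted p up to 0.122) and without deleted replicate 1 or 3 (-1.10 and -1.01, adjusted p 0.0536 and 0.0669). Without both of those it was -0.82 (0.0612), and with litter as a random block it was -1.33 (0.0768).

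Meis1 and Pbx3, of the same TALE class of homeodomain proteins, were not called. Meis1 stood at 23.5, 24.0, 22.7 and 20.8 CPM with Kat7 intact and 19.0, 26.8, 21.8 and 35.6 CPM for deleted replicates (log2 fold change 0.18, interval -0.26 to 0.62). Pbx3 stood at 21.7 to 23.9 CPM with Kat7 intact and 16.4 to 25.3 CPM in deleted cultures (-0.13, interval -0.47 to 0.20). Both intervals lie above the fitted value of Meis2.

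The Zic genes, zinc finger factors of dorsal neural tissue and the cerebellum, were not called. Zic1 stood at 46.1 to 54.1 CPM with Kat7 intact and at 51.9, 50.03, 58.2 and 29.4 CPM for deleted replicates. Zic2 stood at 23.3 to 30.5 CPM with Kat7 intact and at 35.5, 24.6, 46.5 and 12.2 CPM in deleted ones, and Zic5, its neighbour 9.73 kb away on chromosome 14, at 6.93 to 8.41 and at 8.69, 8.08, 10.6 and 4.52 CPM. Deleted replicate 4 was the lowest library for all of them and deleted replicate 3 the highest. Log2 fold changes were -0.10, 0.17 and 0.05, with intervals of -0.55 to 0.35, -0.62 to 0.95 and -0.54 to 0.63. Zic5 turned to -0.07 with scaling by total counts alone, and the sign of each Zic gene depended on which libraries were included.

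En2, a homeodomain factor of the midbrain and anterior hindbrain, stood at 8.20, 10.05, 6.02 and 4.84 CPM with Kat7 intact and 4.63, 1.10, 5.38 and 0.957 CPM for deleted replicates. Deleted replicates 2 and 4 were lowest, replicate 1 was just below and replicate 3 within the intact range, and the log2 fold change was -1.24 (interval -2.53 to 0.04, adjusted p = 0.203). Without deleted replicates 1 and 3 it was -2.81 with an adjusted p of 0.00541. En1 had 13, 4, 11 and 5 reads in intact and 3, 9, 15 and 0 in deleted replicates. Pax3 and Pax7, paired-box factors of the dorsal neural tube and neural crest, had 5 and 4 reads over all libraries.

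Ratios between related genes within a library (differences in log2 CPM) depend little on scaling, and 6 such pairs were compared after the values were seen. Meis2 to Meis1 stood apart in its ratio: the log2 ratio was 0.71, 1.10, 0.58 and 1.13 in intact and -0.34, -0.54, -0.89 and -0.26 in deleted replicates. Meis2 thus gave more counts than Meis1 in every intact culture and fewer in every deleted one. The difference was -1.39, with an exact two-sided permutation p of 0.0286, the smallest that 70 arrangements allow, and 0.171 after Benjamini-Hochberg adjustment over the 6 pairs. Sp8 to Sp9 had means of -0.21 ± 0.88 in intact and -0.19 ± 3.14 in deleted cultures, with deleted replicates 2 and 4 at 2.43 and 2.60 and replicates 1 and 3 at -3.26 and -2.52. Zic5 to Zic2 had the smallest SD of the 6 pairs in intact cultures, at -1.76 ± 0.06, and stood at -1.78 ± 0.34 in deleted ones. In the deleted cultures the smallest SD was that of Meis2 to Meis1 (0.28). Exact permutation p-values ran from 0.286 to 0.971 for the 5 pairs other than Meis2 to Meis1.

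**Figure D4:**
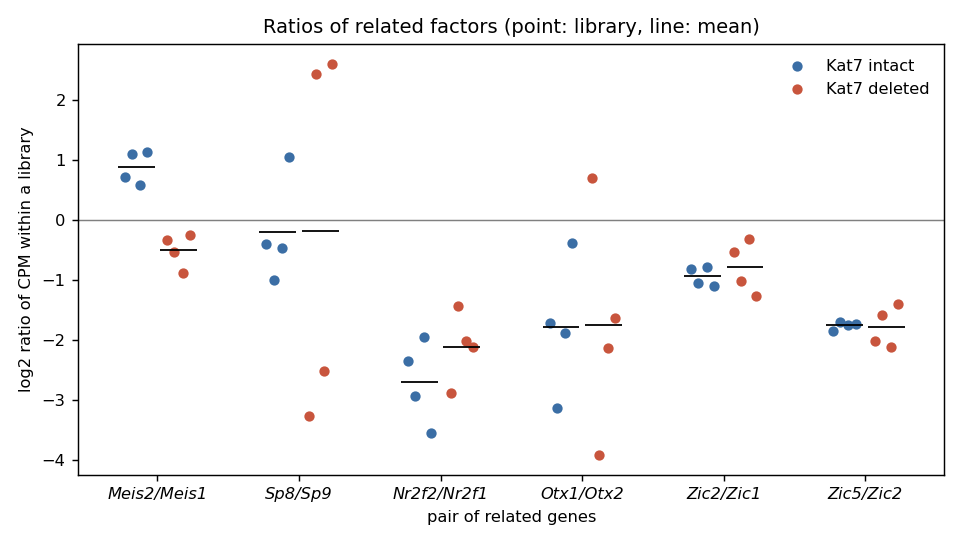
Log2 ratio of CPM within each library for 6 pairs of related factors, blue for intact and red for deleted cultures, with means as lines. The Meis2 to Meis1 ratio is above 0 in all intact and below 0 in all deleted cultures, and the Sp8 to Sp9 ratio splits the deleted cultures.

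Spread between cultures was larger in the deleted genotype across the whole table, regional factors included. The SD of log2 CPM was larger in the deleted genotype for 21 of the 22 tested genes, Dmrta2 being the exception, against 86.6% of all genes tested. The largest SDs in deleted cultures were those of Sp8 (3.91), Nr2f1 (2.33), Nr2f2 (2.31) and Otx1 (2.05), against 0.67, 0.13, 0.80 and 0.68 in intact ones. Deleted replicate 4 lay below the lowest intact culture for 11 of the 22, the Zic and Nr2f genes among them, and deleted replicate 3 lay above the highest intact culture for 12. Over all genes tested, deleted replicate 4 lay below the intact range for 37.8% and deleted replicate 3 above it for 33.9%. Replicates 3 and 4 were littermates.

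**Figure D5:**
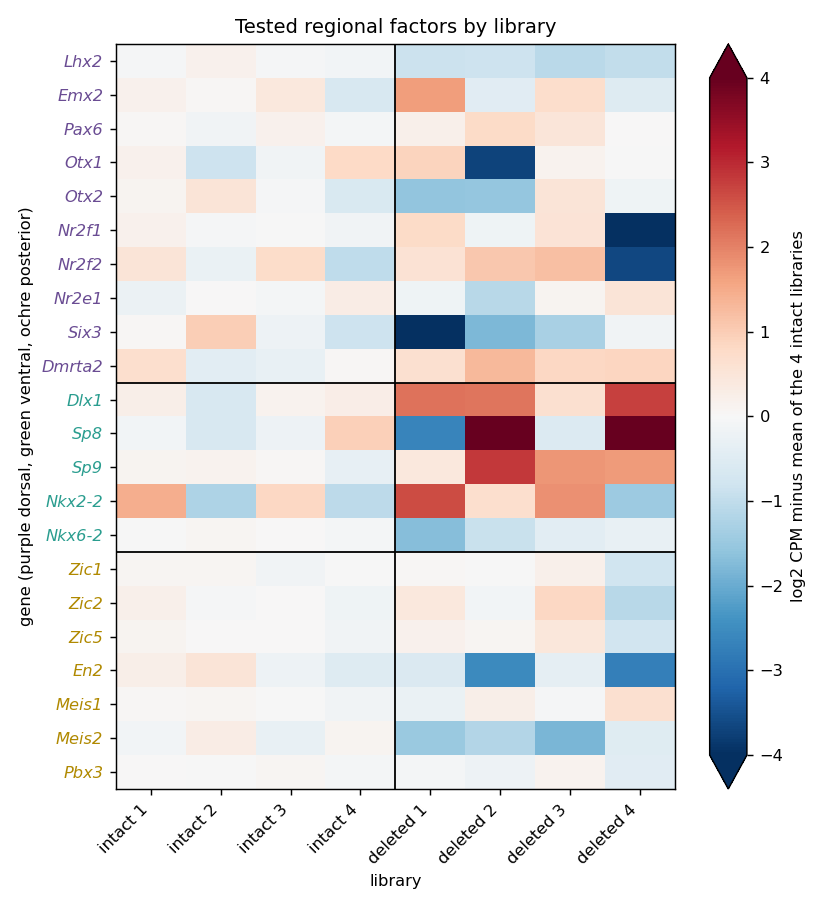
Log2 CPM of the 22 tested factors in each library, minus the mean of the 4 intact libraries, with red above and blue below that mean and colours capped at 4 in each direction. Lhx2 and Meis2 are blue and Dlx1 and Sp9 red in all 4 deleted columns, while Sp8, Nr2f1, Nr2f2, Otx1 and Six3 have 1 or 2 extreme columns.

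The 39 Hox genes, which mark the hindbrain and spinal cord, summed to 12.1, 2.02, 3.57 and 0.0870 CPM for deleted replicates 1 to 4 and to 1.85, 0.299, 2.79 and 0.0872 CPM in intact ones. Hoxa5, named for its mean CPM over all libraries, stood at 5.39, 0, 1.32 and 0.0870 CPM for deleted replicates and at 0.927, 0.0598, 0.978 and 0 CPM in intact ones.

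Other regional genes came from lists chosen with earlier results known. Of 4 tested among 16 other dorsal and general forebrain genes none was called. An unadjusted p under 0.05 in edgeR was reached by 1 above and 1 below, against 15.8% and 10.4% of all genes tested. The 1 above passed the low-count filter through its deleted libraries alone, the group where it was higher. Gli3, the hedgehog pathway factor that favours dorsal fates, was named for its mean CPM over all libraries, at 16.5 ± 2.62 CPM with Kat7 intact and 22.8 ± 6.27 CPM in deleted cultures. Of 9 tested among 15 other ventral genes 1 was higher and 1 lower, against 5.10% and 2.80% of all genes tested. Maf, a bZIP factor of cortical interneurons, rose from 6.99 ± 0.790 to 16.8 ± 4.41 CPM (log2 fold change 1.26 ± 0.21, adjusted p = 0.0140), and Foxp2, a forkhead factor of striatal and deep cortical neurons, fell from 1.43 ± 0.451 to 0.116 ± 0.139 CPM (-3.35 ± 0.71, adjusted p = 0.0287). Foxp2 passed the low-count filter through its intact libraries alone, the group where it was higher. Of 7 tested among 23 other midbrain, hindbrain and dorsal neural tube genes none was called. In edgeR 0 above and 1 below had an unadjusted p under 0.05, against the same 15.8% and 10.4% of all genes. Tcf7l2, a Wnt effector of the thalamus, was named for its mean CPM over all 8 libraries, at 7.79 ± 1.38 and 9.28 ± 1.99 CPM. Per length it was below Irx5 and Gbx2, at 1.71 RPKM against 3.24 and 2.83 RPKM in the intact cultures. Of 39 Hox genes 1 was tested, Hoxa5 (log2 fold change 1.84 ± 1.42, adjusted p = 0.444).

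Among 16 relatives and cofactors, all tested, 1 was higher and 1 lower, against 5.10% and 2.80% of all genes tested. Tgif1, a TALE homeodomain repressor related to the Meis proteins, stood at 11.9, 12.3, 11.1 and 12.3 CPM with Kat7 intact and 15.2, 46.9, 23.8 and 33.6 CPM for deleted replicates (log2 fold change 1.32 ± 0.30, adjusted p = 0.0369). Lmo4, a LIM-only protein that binds the same cofactor as Lhx2, fell from 118, 119, 100.4 and 136 CPM in the intact cultures to 57.0, 67.4, 88.5 and 58.4 CPM in the deleted ones (-0.80 ± 0.17, adjusted p = 0.0278). That cofactor, Ldb1, stood at 59.6 ± 6.31 and 66.9 ± 8.97 CPM (adjusted p = 0.466). The calls of Foxp2, Tgif1 and Lmo4 were lost without any 1 intact library (adjusted p up to 0.0885, 0.112 and 0.0919), and that of Maf without intact replicate 2 or 4 (up to 0.0629). Removing deleted replicate 3 or 4 also ended the call of Tgif1, and removing deleted replicate 4 that of Lmo4.

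Reads from the opposite strand cannot be told apart from those of a gene, since no strand setting is given in the sources used here. In the GENCODE annotation of the same build, Lhx2 and Meis2 shared no exon with another gene, Dlx1 overlapped the antisense gene Dlx1as (15 reads over all libraries) and Sp9 overlapped Cir1 (127 reads). Six3 overlapped Six3os1, a noncoding gene with 3135 reads against 217 for Six3. Six3os1 stood at 34.3, 91.4, 35.6 and 10.2 CPM with Kat7 intact and 0.254, 6.43, 1.43 and 5.48 CPM for deleted replicates, with no overlap, and was called lower (log2 fold change -3.70 ± 0.93, adjusted p = 0.0482). It lost that call in 14 of 20 alternatives. Nkx6-2 overlapped Inpp5a, which was called higher (1.11, adjusted p = 0.0371, lost without any 1 intact library or deleted replicate 3). A830082K12Rik, antisense to Nr2f1, was lowest in deleted replicate 4 as well, at 0.522 CPM against 5.14 to 7.91 CPM in intact cultures. Six3os1, Inpp5a and A830082K12Rik were named after their values were seen.

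The windows of Lhx2 and Sp9 are shown because these called genes, 1 lower and 1 higher, have a listed start within 10 bases of the outer edge of the RefSeq gene span. Each is the 250 bases before a start in the RefSeq promoter table (GRCm38.p6), 5′ to 3′ on the gene's strand, with the most upstream listed start taken. The listed starts of Dlx1 and Meis2 lie 1332 and 2918 bases inside the RefSeq gene span, so their windows are within the gene, overlap its annotated exons by 250 and 170 bases, and are not printed. Capitals mark the motifs searched on both strands: TAATTA (homeodomain core), GGGCGG (GC box, bound by Sp-type zinc fingers), TGACAG (bound by Meis and Tgif proteins) and CAGCTG (E box).
Lhx2, chr2:38339031-38339280, plus strand: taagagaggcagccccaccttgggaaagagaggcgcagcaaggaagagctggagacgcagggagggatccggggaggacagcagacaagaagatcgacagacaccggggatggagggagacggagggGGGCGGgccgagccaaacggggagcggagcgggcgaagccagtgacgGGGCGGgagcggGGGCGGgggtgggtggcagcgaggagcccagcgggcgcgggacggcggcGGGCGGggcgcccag
Sp9, chr2:73271676-73271925, plus strand: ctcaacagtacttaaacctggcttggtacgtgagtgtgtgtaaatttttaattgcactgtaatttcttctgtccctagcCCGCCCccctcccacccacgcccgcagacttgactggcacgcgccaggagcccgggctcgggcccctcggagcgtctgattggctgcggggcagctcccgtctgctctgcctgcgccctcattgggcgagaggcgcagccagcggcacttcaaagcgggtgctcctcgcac

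The window of Lhx2 held 4 GC boxes and that of Sp9 held 1, on the opposite strand, while those of Dlx1 and Meis2 held none of the 4 motifs. So 1 gene of each direction had a GC box. Windows were listed for 26 of the 32 genes, 7 of them wholly inside the gene span, and 12 of these held a GC box, against 33.0% of 27025 genes with a window. TAATTA was found in 1 of the 26 (4.91% of all), TGACAG in 4 (15.9%) and CAGCTG in 1 (12.7%). GC content of the windows had a median of 61.6% over the 26 and 52.0% over all genes, with 72.8% for Lhx2, 68.0% for Dlx1, 62.4% for Sp9 and 47.6% for Meis2. Such matches are a description of the letters and no evidence of binding.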

How the data were processed

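The authors deposited raw read counts per Entrez gene, 27179 genes in 8 libraries, as 1 table and as 8 sample files that held the same values. The submitters' processing notes name the build mm10, featureCounts and CASAVA 1.8.2. The aligner and strand setting are not given in the sources used here. Per the labels' protocols, column-purified RNA was read as 100 bp single-end reads. Symbols came from RefSeq GRCm38.p6 (25275 identifiers matched, 1904 not).

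The deposited counts went into edgeR 4.0.16 (R 4.3.3): filterByExpr (minimum count 10), TMM scaling and the robust quasi-likelihood F test, 4 deleted against 4 intact libraries with no covariate. Adjusted p-values are Benjamini-Hochberg values over 13498 genes, called under 0.05, and come from edgeR where no other tool is given. CPM and RPKM use TMM-scaled library sizes and the deposited gene length. Log2 CPM uses a prior count of 2. The SE was taken from the fold change and the F statistic, and intervals are 95% from it. Littermates were treated as independent libraries. The procedure was tested on simulated counts. These were drawn as independent libraries with the same spread in both genotypes, and so do not cover the larger spread of the deleted cultures or the littermates.

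The 32 genes and all lists were chosen with earlier results of these data known. The naming rule took all 32 genes, each called gene of the other lists, and the gene of highest mean CPM in a list with none called. Alternatives were other scalings and filters, DESeq2 1.42.0, limma 3.58.1 (voom with sample weights, and with litter as a random block), littermates summed, the replicate number as a block, mitochondrial genes left out, and libraries left out singly or as 2 pairs of deleted replicates (1 and 3, with Kat7 reads, and 1 and 4, with the highest mitochondrial share). The paralog ratios, with their prior count of 0.5 and left-out libraries, were added after the values were seen. Some values outside the 32 genes are not reported here.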

Additional observations from a re-analysis of the deposited data

How the results depend on the processing

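The number of genes called, 1066, was 673 with scaling by total counts alone, 2203 with DESeq2, 2283 with limma-voom and sample weights, 414 with litter as a random block, 193 with littermates summed and 2299 without the deleted pair with Kat7 reads. It ran from 189 to 2182 with 1 library left out. Of the regional factors 2 were called higher. This was 1 with scaling by total counts alone, with at least 1 CPM in at least 4 libraries, with limma-voom and sample weights, with littermates summed and with mitochondrial genes left out, 4 with DESeq2, 0 with litter as a random block and 0 to 3 with 1 library left out. With the 1 CPM filter and with mitochondrial genes left out, Dlx1 did not pass the filter and was not tested. The 2 called lower were 1 with litter as a random block, 1 with littermates summed and 1 to 2 with 1 library left out. With the replicate block 319 genes were called, 0 regional factors higher and 2 lower. The numbers are not stated to pair the cultures, and no litter held both genotypes. Deviations of same-numbered libraries correlated at 0.0961, 0.221, 0.110 and 0.331 across genes. Differently numbered libraries ran from -0.270 to 0.251, most of them below 0. Intact replicates 2 and 4 correlated best with the deleted library of their own number. Intact replicate 1 did so with deleted replicate 3 (0.163), and intact replicate 3 with deleted replicate 1 (0.251).

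Of 438 values of 22 factors under 20 alternatives, 28 changed sign, all of genes not called. Without the deleted pair with Kat7 reads these were Emx2 (-0.55), Nr2f1 (-1.10), Nr2f2 (-0.015), Nkx2-2 (-0.47), Zic2 (-0.53) and Zic5 (-0.30), and outside the set Tcf7l2 (-0.031) and Hoxa5 (-3.22). Nr2f1 was also -0.089 with total counts alone, -0.00048 with DESeq2, -0.36 with sample weights, -0.45 with the replicate block and -0.30 with litter as a random block. Zic5 was -0.069 with total counts alone and -0.0099 with the replicate block. Nr2e1 was 0.11 with sample weights, and Zic1 was 0.069 without the pair of highest mitochondrial share. With 1 library left out, ranges crossed 0 for Emx2 (-0.014 to 0.85), Otx1 (-0.59 to 0.29), Nr2f1 (-0.32 to 0.43), Nr2e1 (-0.31 to 0.17), Zic1 (-0.21 to 0.071), Zic2 (-0.13 to 0.43), Zic5 (-0.12 to 0.24) and Meis1 (-0.015 to 0.30). The ratio differences crossed 0 for Sp8 to Sp9 (-0.91 to 1.04; -0.073 with a prior count of 0.5), Otx1 to Otx2 (-0.78 to 0.76; -0.13 with that prior) and Zic5 to Zic2 (-0.15 to 0.086). The cause was not tested. Depth limits Dlx1, Dlx2, Gsx1 and En1, which had at most 34 reads in a library.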

Other observations

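All 4 called regional factors lie on chromosome 2, which holds 9 of the 32 genes and 7 of the 22 tested. Of 1035 genes tested on that chromosome, 96 (9.28%) were called. Dlx1 and Sp9 lie 1738 kb apart there. Emx2os, a noncoding gene that overlaps Emx2, stood at 16.7, 1.74, 4.23 and 3.83 CPM for deleted replicates 1 to 4 and at 2.31 to 4.55 CPM in intact ones, so its highest library was that of Emx2 (adjusted p = 0.365). Emx2os was named after its values were seen.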
